A study of Xenopus laevis with 3 samples.

Results

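Kinesins and dyneins are the motor proteins that walk along microtubules, and their genes were described here over the germ cells and somatic cells of the juvenile *Xenopus laevis* ovary. Members were chosen by feature name alone: every feature named kif followed by a digit, kifc, klc followed by a digit, dync, dynll, dynlr or dynlt. This rule took 87 of the 44478 features counted, with 55 gene names and both homeologs (the .L and .S copies that the genome of this allotetraploid frog keeps) for 32 of them. All 87 had at least 1 UMI in the 3 libraries, with totals from 3 to 33337 UMIs over all cells, and 5 members had fewer than 100 UMIs. A UMI (unique molecular identifier) marks 1 captured RNA molecule. The 2 homeologs were counted as separate features, so that reads matching both copies may have been lost or split between them.

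Most kinesins walk towards microtubule plus ends and cytoplasmic dynein towards minus ends. A set of kinesins builds, moves and cuts the spindle in dividing cells, and another set, together with cytoplasmic dynein, carries organelles, vesicles and RNAs. In the *Xenopus* oocyte, kinesin-1 and kinesin-2 are known for carrying localised RNAs to the vegetal cortex, and in dividing germline cysts Kif23 is known as part of the midbody machinery from which intercellular bridges form.

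The members fell into 9 classes. The 19 mitotic members were *kif4a*, *kif11*, *kif14*, *kif15*, *kif18a*, *kif18b*, *kif20a*, *kif20b*, *kif22*, *kif23*, *kif2c* and *kifc1*. Of the others, 10 were kinesin-1 (*kif5* heavy and *klc* light chains), 11 kinesin-2 and kinesins of the cilium, 10 kinesin-3 (*kif1*, *kif13* and *kif16b*), 3 other kinesin-13 and 8 other kinesins. Dynein was represented by 7 dynein-1 members, 5 members of dynein-2 (the dynein of intraflagellar transport) and 14 dynein light chains, which serve more than 1 dynein and also bind other proteins. The kinesin-1, kinesin-2, kinesin-3 and dynein-1 classes together, 38 genes, are called transport motors here. Only the .S copy of *kif20b* was among the features.

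The samples were 3 individual ovaries of wild-type juvenile frogs at Nieuwkoop-Faber stages 62 to 66, untreated and dissociated with collagenase. The ovaries were biological replicates, each giving a single droplet library (10x Genomics GEM-X, 3′ end counting) from about 10000 loaded cells. There was no treated group, and library and ovary cannot be told apart. The comparisons are between cell groups of the same ovaries, with n = 3.

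The files held 5987, 6302 and 6964 cells for ovaries 1, 2 and 3, with 54386717, 50085751 and 33909102 UMIs on named features. Motor genes took 0.302%, 0.331% and 0.281% of these UMIs. After filtering (100 to 8000 genes and at most 1.5% mitochondrial UMIs), 17147 cells remained, 8206 of them in germline clusters and 8941 in somatic ones. The germline share differed between ovaries, with 1034, 4190 and 2982 germline cells against 4580, 1163 and 3198 somatic cells. The 337 cells with more than 8000 genes (225, 54 and 58 per ovary) were kept as a group of their own. In the libraries 34 cell barcodes occurred more than once, in cells of different ovaries.

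Cell groups were named from lists of marker genes and carry the ending "-like". The GSC-like group (germline stem cell; 53, 76 and 37 cells) carried *piwil4.S* among its leading genes, the G2/M-like group (70, 114 and 69 cells) *ccnb3*, the pre-meiotic S-like group *rec8.L* and the L-Z-like (leptotene to zygotene) group *dmc1.L* and *sycp3.L*. The pachytene-like group was less distinct, because its excess of the L-Z markers (2.95 on the log2 scale) was above its excess of the pachytene markers (1.94). The pre-meiotic S-like group, the reference of several comparisons below, was also weakly marked. Its excess of the pre-meiotic S markers was 0.558. The early diplotene-like and stage 1 follicle-like groups held oocytes with high UMI counts (medians of 21768 and 21185). Markers of the G2/M list, most of them cyclins and mitotic kinases, were higher in the stage 1 follicle-like cells (8070, 3990 and 6510 CPM, UMIs per 1000000 UMIs of the group) than in the G2/M-like cells (2340, 2460 and 2630). Germline clusters 5, 6 and 11 were low-UMI clusters, with medians of 1000, 941 and 2669 UMIs per cell. Clusters 5 and 11 were named so because their medians were low against the stage 1 follicle-like median. The medians of the L-Z-like (1944.5) and pre-meiotic S-like (2411.5) cells were below that of cluster 11. Motor genes were taken out of the genes used for clustering, but genes that vary with them were not. The p-values below therefore set a difference between these clusters against the spread over 3 ovaries within each cluster. They do not pair the sums of an ovary, except where the ovary is named as a block. *kif20b.S* was itself among the 10 leading genes of the G2/M-like cluster.

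All levels below are UMIs of a gene per 1000000 UMIs of the cell group (CPM), given in the order of ovaries 1, 2 and 3. A fold change and its adjusted p are from edgeR's quasi-likelihood test of the UMIs summed per ovary and group, with TMM scaling and Benjamini-Hochberg adjustment over all genes tested, and a member is called when its adjusted p is under 0.05. A CPM can fall because other RNAs rise, and in sums over cells fewer expressing cells and less RNA per cell cannot be told apart. A member near 0 in 1 group passes the filter on low counts through the other group, and can then hardly be called lower there.

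The summed mitotic motors varied along the germline, with high levels in dividing cells and a rise from early diplotene to stage 1 oocytes in each ovary. The sum was at 922, 923 and 961 CPM in GSC-like cells and at 2070, 2380 and 2360 in G2/M-like cells, the highest of the germ cell stages in ovaries 2 and 3. It was 662 ± 151 (mean ± SD, n = 3) in pre-meiotic S-like cells and 1170 ± 148 in L-Z-like cells. The lowest stage was early diplotene, with 424, 302 and 367, after which the stage 1 follicle-like cells had 2070, 621 and 1120. The spread between ovaries was small at the early stages and large in the stage 1 follicle-like cells, where ovary 1 had more than 3 times the level of ovary 2.

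The summed transport motors took another course. They were highest in the GSC-like cells (2310, 2430 and 2410 CPM) and lay between 1420 and 1840 CPM from the G2/M-like to the pachytene-like cells in each ovary. They were at 657, 810 and 678 in early diplotene-like cells and at 591, 440 and 454 in stage 1 follicle-like cells, below all earlier stages in every ovary. The 14 dynein light chains did not follow them: their sum was 993, 1020 and 697 in GSC-like, 2020, 2050 and 1630 in L-Z-like and 1570, 1100 and 988 in stage 1 follicle-like cells. No test was run on these sums. They are scaled by total UMIs, and on that scale the typical gene moved too. The median log2 difference of all genes tested was -0.74 in early diplotene-like against pachytene-like cells. It was 0.36 in GSC-like against pre-meiotic S-like cells.

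**Figure D1:**
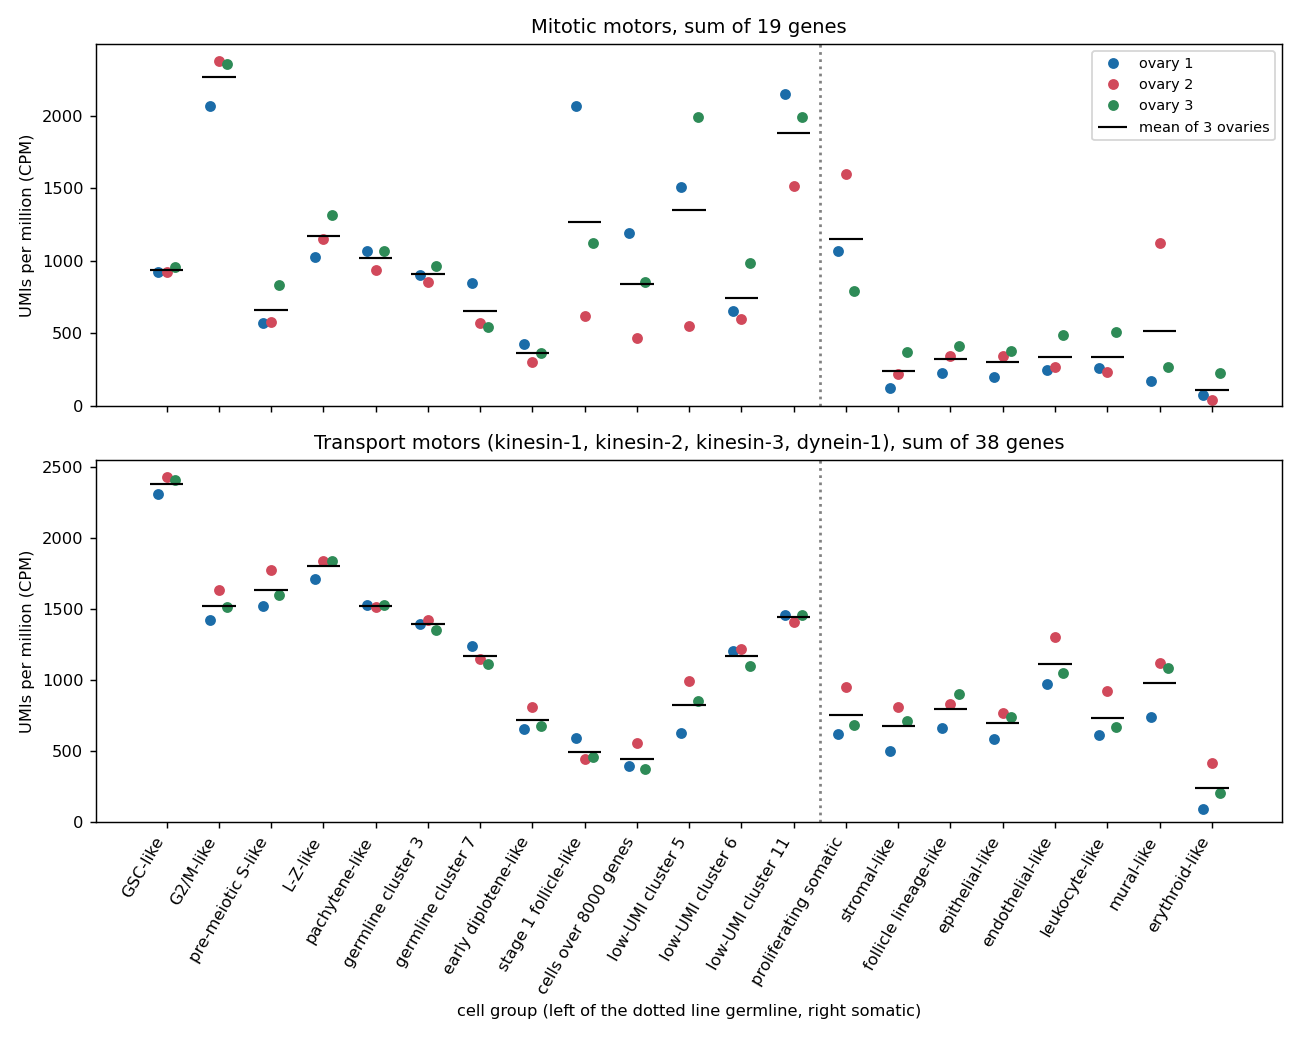
Summed level of the mitotic motors and of the transport motors (y axis, CPM) in each cell group (x axis), with 1 point per ovary and the mean of the 3 ovaries. The mitotic sum peaks in the G2/M-like cells and is lowest among the germ cell stages in the early diplotene-like cells, whereas the transport sum is highest in the GSC-like cells.

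Cells in G2/M were first compared with pre-meiotic S-like cells. Nearly the whole mitotic class was higher in the G2/M-like cells, by 2.05- to 13.8-fold, while of the transport motors and light chains 1 gene was called. Of 57 members that passed the filter on low counts, 17 were higher, all of them mitotic (17 of 18 tested), where 2.4% of all genes tested were higher. Of these, *kif11.L*, *kif11.S*, *kif18b.L*, *kif20a.L* and *kif20a.S* passed the filter through the G2/M-like cells. In L-Z-like against pre-meiotic S-like cells they had too few UMIs to test, so here they could hardly have been lower. *kif23.L* and *kif23.S* also passed the filter through the G2/M-like cells and could hardly have been lower. Such genes raise the mitotic count and median. The other mitotic members tested were called higher except *kif22.L*. The dynein-1 heavy chain *dync1h1.L* was the 1 member that was lower, where 0.896% of all genes were. The median mitotic log2 difference was 1.98, against -0.02 for all genes. With the ovary as a block, 5 of 11 light chains were also called, 1 higher and 4 lower.

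Kif11, the kinesin-5 that pushes spindle poles apart, stood out. *kif11.S* was at 80.2, 89.2 and 125 CPM in G2/M-like and 8.76, 3.06 and 9.17 in pre-meiotic S-like cells, without overlap, and was 13.8-fold higher (log2 3.79, SE 0.361, adjusted p = 1.57e-05). *kifc1.L*, encoding a minus-end kinesin that focuses spindle poles, was at 196, 110 and 104 against 15.1, 13 and 24.5 CPM (8.19-fold higher, adjusted p = 3.96e-05). Levels of *kif15.L*, a second motor that keeps the spindle bipolar, were 135, 223 and 246 against 31.9, 58.9 and 50.5 (4.12-fold higher, adjusted p = 0.000229). All 3 genes were higher in each ovary by a wide margin.

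The kinesins of the chromosome arms and the midzone behaved alike. *kif4a.S*, a chromokinesin of the central spindle, was at 127, 125 and 150 against 18.3, 18.4 and 44.3 CPM (5.17-fold higher, adjusted p = 0.000224). The kinesin-6 genes act in cytokinesis: *kif20a.S* was at 86.5, 123 and 50.1 against 9.56, 17.6 and 9.17 (6.94-fold higher, adjusted p = 0.000169). *kif23.L* was at 50.7, 42.5 and 41.8 against 4.78, 5.36 and 7.64 (7.66-fold higher, adjusted p = 0.000212) and *kif23.S* at 25.3, 44.6 and 29.2 against 4.78, 9.18 and 13.8 (3.76-fold higher, adjusted p = 0.0267). Both copies were apart in every ovary, the .L copy by more. *kif20b.S* already had 245, 227 and 336 CPM in pre-meiotic S-like cells and reached 621, 773 and 718 (2.57-fold higher, adjusted p = 0.000101).

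In the other direction, *dync1h1.L* was at 23.2, 27.6 and 29.2 CPM in the G2/M-like and 52.6, 64.3 and 62.7 in the pre-meiotic S-like cells (2.31-fold lower, adjusted p = 0.0185). The ranges did not meet in any ovary. Of the genes that work with mitotic motors (*prc1*, *tpx2*, *aurka* and other spindle and midbody genes), 27 of 29 tested were higher and 0 lower, with a median of 2.13. This list shares *plk1*, *aurkb* and *bub1* with the G2/M markers from which groups were named. Of the dynactin and dynein regulators 1 of 23 was higher, and none of the 10 kinesin partners or of the 17 vegetal RNA transport proteins was called. The pre-meiotic S-like cells had far lower G2/M markers (464, 419 and 1080 CPM), and the 2 groups were named in part from such genes. Leaving out ovary 1 or ovary 2 left 10 members called instead of 18. In finer germline clusters (resolution 1 in place of 0.5), 9 members were higher and 16 lower. The pre-meiotic S-like cluster held 255 cells there, against 990 in the main clusters (Jaccard index 0.146).

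GSC-like cells were next compared with pre-meiotic S-like cells. Kinesin-1 was higher in the GSC-like cells, at 612, 586 and 571 CPM for its 10 genes against 260, 265 and 304, and several dynein light chains were lower. Among 56 members tested, 22 were higher, where 20.9% of all genes were, and 8 were lower, where 19.6% were. Kinesin-1 had 7 of 8 tested members higher and none lower (median log2 1.31, all genes 0.02), and the light chains had 1 higher and 5 lower of 11 (median -0.66). Both copies of *kif5a* and *kif5c* passed the filter on low counts through the GSC-like cells alone. They could hardly have come out lower, which raises the kinesin-1 count and median. Of the other tested members, *kif5b.L*, *kif5b.S* and *klc1.S* were called higher and *klc1.L* was not called.

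Both neuronal-type heavy chains of kinesin-1 were among the higher genes. *kif5a.L*, whose mammalian counterpart works mostly in neurons, was at 36.7, 69.5 and 27.4 CPM in GSC-like cells and 1.59, 0.765 and 1.53 in pre-meiotic S-like cells, the latter from 4 UMIs in all. *kif5c.S* was at 36.7, 24.1 and 32.9 against 0.797, 1.53 and 3.06, from 31 and 5 UMIs. The broadly expressed heavy chain *kif5b.S* was at 202, 190 and 214 against 119, 113 and 116 (1.46-fold higher, adjusted p = 0.0226). None of the 3 overlapped between the groups, and the first 2 rest on few UMIs.

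Other motors of vesicles and axons moved in the same direction. *kif1b.S*, a kinesin-3 that carries mitochondria and synaptic vesicle precursors in mammals, was at 172, 222 and 220 against 83.7, 121 and 78 CPM (1.79-fold higher, adjusted p = 0.0048). *kif21a.L*, a kinesin that restrains microtubule growth, was at 206, 281 and 302 against 116, 120 and 121 (1.83-fold higher, adjusted p = 0.00143). Both were higher in each ovary. In dynein-1, the light intermediate chain *dync1li2.L* was higher (135, 93.6 and 121 against 51.8, 51.3 and 36.7, 2.06-fold, adjusted p = 0.00298) and its relative *dync1li1.S* was lower (96.3, 126 and 148 against 210, 214 and 208, 2.09-fold, adjusted p = 4e-04). Light intermediate chains link dynein to its cargo adaptors. These 2 copies differed in opposite directions in each ovary, and the other copies, *dync1li2.S* (adjusted p = 0.371) and *dync1li1.L* (adjusted p = 0.315), were not called.

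Among the lower genes, *kif3a.L*, a motor subunit of kinesin-2, was at 82.5, 80.2 and 110 CPM in GSC-like against 197, 243 and 196 in pre-meiotic S-like cells (2.86-fold lower, adjusted p = 2.12e-05). The other copy, *kif3a.S*, was at 293, 337 and 291 against 185, 223 and 168, higher in each ovary and not called (adjusted p = 0.0628, or 0.0267 with the ovary as a block). The Tctex-type light chain *dynlt1.L* was at 124, 206 and 148 against 342, 469 and 414 (3.03-fold lower, adjusted p = 1.22e-05) and the LC8-type light chain *dynll2.S* at 41.3, 56.2 and 32.9 against 125, 126 and 105 (3.16-fold lower, adjusted p = 6.1e-05). Of the light chains, *dynlt2b.L*, a dynein-2 light chain in mammals, went the other way (268, 321 and 181 against 116, 135 and 107, 1.84-fold higher, adjusted p = 0.00223). No overlap was seen for *kif3a.L*, *dynlt1.L*, *dynll2.S* and *dynlt2b.L*. The mitotic class split, with *kif15.S* at 71.1, 90.9 and 82.3 against 22.3, 19.9 and 24.5 (3.09-fold higher, adjusted p = 0.000182), 4 members higher and *kif20b.S* lower. Scaled by total UMIs instead, where the median of all genes became 0.36, 6 mitotic members were higher and none lower, and *kif20b.S* was no longer called (adjusted p = 0.377). *kif23.L* and *kif23.S* had too few UMIs to test (8 and 14 in the GSC-like cells).

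Among partner genes, 5 of 25 dynactin and dynein regulators were higher and 6 lower, and 1 of 11 kinesin partners was higher and 1 lower. The vegetal RNA transport proteins had 2 higher and 8 lower of 17, and the mitotic partners 9 higher and 2 lower of 23. Without ovary 2, 14 of the 30 calls were made, and DESeq2 called 18 (11 higher, 7 lower, where edgeR had 22 and 8). In the finer clusters 7 were higher and 14 lower.

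From pre-meiotic S to leptotene and zygotene, several mitotic kinesins were higher again together with 2 dynein-2 genes and 4 dynein light chains. At the same time some dynein-1 subunits, *kif20b.S* and *kif13a.S* were lower. The mitotic class had 9 higher and 1 lower of 13 tested (median log2 1.02, all genes -0.01). Over the 64 members tested 23 were higher and 10 lower, where 21.2% and 21.7% of all genes were, and scaled by total UMIs (median of all genes 0.17) the split was 28 and 6.

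The mitotic genes that were higher were not led by *kif11*, whose copies had too few UMIs to test. *kif22.S*, encoding the chromokinesin Kid that pushes chromosome arms outward, was at 247, 191 and 279 CPM in L-Z-like and 26.3, 37.5 and 47.4 in pre-meiotic S-like cells, without overlap (5.93-fold higher, log2 2.57, SE 0.24, adjusted p = 8.91e-06). *kif2c.L*, a kinesin-13 that shortens microtubules at centromeres, was at 190, 187 and 219 against 42.2, 32.9 and 68.8 (3.87-fold higher, adjusted p = 6.06e-05). Every ovary showed both. *kif23.L* was at 13.7, 12.9 and 16.8 against 4.78, 5.36 and 7.64 (2.24-fold higher, adjusted p = 0.0304), below its level in the G2/M-like cells in each ovary. *kif20b.S* was the exception in its class, at 110, 145 and 181 against 245, 227 and 336 (2.02-fold lower, adjusted p = 0.00159).

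Among the light chains, *dynlrb2.S* is a roadblock light chain known from the testis and from cilia in mammals. It was at 194, 312 and 197 CPM against 12.7, 42.1 and 45.9 (6.56-fold higher, adjusted p = 8.63e-05). The Tctex-type light chain *dynlt5.L* was at 74.4, 112 and 86.8 against 7.97, 19.1 and 13.8 (6.06-fold higher, adjusted p = 4.15e-05). A pair of kinesins joined them in each ovary without overlap. *kif24.L*, a kinesin-13 of the mother centriole that holds back cilium assembly in mammals, was at 78.3, 62.9 and 95.9 against 12.7, 15.3 and 19.9 (4.52-fold higher, adjusted p = 6.08e-05), and *kif26b.L*, an atypical kinesin without motor activity in mammals, at 41.1, 72.4 and 64.8 against 5.58, 16.8 and 19.9 (4.07-fold higher, adjusted p = 0.000803). *kif1a.S* had 80 UMIs in L-Z-like cells (19.6, 31.1 and 31.1 CPM) and 3 in pre-meiotic S-like cells (1.59, 0.765 and 0).

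Dynein-2 genes were higher too. Its 5 genes summed to 395, 380 and 375 CPM in L-Z-like and 206, 244 and 255 in pre-meiotic S-like cells, and 2 of 4 tested members were called higher, among them *dync2i1.S*, an intermediate chain (194, 168 and 172 against 63.7, 84.9 and 81, 2.1-fold, adjusted p = 0.000738). Dynein-1 had 1 higher and 3 lower of 7, but 1 higher and 1 lower when scaled by total UMIs (median -0.22). *dync1li1.S* was at 117, 133 and 159 against 210, 214 and 208 (1.7-fold lower, adjusted p = 0.00305). In clusters cut at a finer resolution the same gene was at a log2 difference of 0.26 (adjusted p = 0.508), and the cause was not tested. *kif7.L*, a kinesin of Hedgehog signalling at the cilium, was at 23.5, 20.3 and 19.4 against 49.4, 39 and 44.3 (2.35-fold lower, adjusted p = 0.00214).

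Partner genes were again mixed, with 12 of 29 mitotic partners higher and 1 lower, 6 of 32 dynactin and dynein regulators higher and 9 lower, 1 of 14 kinesin partners higher and 5 lower, and 3 of 20 vegetal RNA proteins higher and 6 lower. Globin genes stood among the leading genes of the L-Z-like cluster, and the 11 erythroid markers, of which *hba4.S* was at 0, summed to 80.3, 39.2 and 3300 CPM there. Their part in these differences was not tested. In the finer clusters 7 members were called.

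Few motor genes separated the pachytene-like from the L-Z-like cells. Of 60 members tested 3 were higher and 8 lower, where 8.37% and 7.75% of all genes were. The LC8-type light chains went in opposite directions: *dynll2.S* was at 156, 155 and 135 CPM in pachytene-like and 66.6, 68.3 and 72.6 in L-Z-like cells (2.1-fold higher, adjusted p = 0.00516), and *dynll1.S* at 140, 150 and 90.4 against 223, 229 and 196 (1.75-fold lower, adjusted p = 0.0285). Neither overlapped between the groups.

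Of the other named genes, *kif22.S* was at 96.9, 101 and 122 against 247, 191 and 279 CPM (2.25-fold lower, adjusted p = 0.00539). It was the only called member of 13 mitotic ones tested. Kinesin-2's *kif3a.S* was at 59.2, 59.6 and 83.4 against 170, 131 and 119 (2.1-fold lower, adjusted p = 0.0121) and *dync1h1.L* at 37.7, 39.2 and 42.3 against 78.3, 80.5 and 81.7 (2.04-fold lower, adjusted p = 0.00872). *dync1li1.L* was at 64.6, 64.6 and 52.8 against 7.83, 25 and 33.7 (2.53-fold higher, adjusted p = 0.0207). These differences were seen in all 3 ovaries. *kif23.L* had 10.8, 11.5 and 16.4 against 13.7, 12.9 and 16.8 CPM and was not called (adjusted p = 0.801).

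Partner lists gave 2 higher and 4 lower of 29 mitotic partners, 0 higher and 1 lower of 31 dynactin and dynein regulators, 0 higher and 2 lower of 11 kinesin partners, and 6 higher and 2 lower of 20 vegetal RNA proteins. The count rested on the fit: 21 members were called with the ovary as a block, and 0 without ovary 2 or without ovary 3. In finer clusters 1 member was called.

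The comparison of early diplotene-like with pachytene-like cells had the most lower calls of the stage comparisons described. Cysts break up into single oocytes at early diplotene. Germline clusters 3 and 7, which carried no stage name, were left out of this comparison. Their mean mitotic sums were 908 and 653 CPM, between 1020 in pachytene-like and 365 in early diplotene-like cells. The mean transport sums were 1390 and 1170, between 1520 and 715. Mitotic and kinesin-2 genes and 3 of 5 dynein-2 genes were lower, and *kif14l.L* and *dynll2.S* were among the few that were higher. Of 67 members tested 6 were higher, where 25.2% of all genes were, and 27 lower, where 23.2% were. With total UMIs (median of all genes -0.74) the split was 3 higher and 44 lower. The mitotic class had 8 of 17 lower and none higher (median log2 -1.02, all genes 0.02), and kinesin-2 and cilium 5 of 7 lower (median -0.85).

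*kif23.L* showed one of the largest falls, from 10.8, 11.5 and 16.4 CPM in pachytene-like cells to 2.23, 0.613 and 0.834 in early diplotene-like cells (10-fold lower, log2 -3.33, SE 0.506, adjusted p = 0.000354). It had few UMIs and passed the filter on low counts through the pachytene-like cells. It could therefore hardly have been called higher in the early diplotene-like cells. *kif4a.S* was at 17.9, 5.44 and 9.8 against 135, 110 and 139 (8.76-fold lower, adjusted p = 6.96e-05). *kif18a.L*, a kinesin-8 that damps chromosome movement at the metaphase plate, was at 11.2, 2.53 and 6.05 against 59.2, 39.5 and 44.6 (5.66-fold lower, adjusted p = 0.00125). Pachytene-like cells were higher in every ovary for all 3. *kif20b.S* (105, 43.6 and 56.9 against 161, 100 and 129 CPM) was not called (adjusted p = 0.583).

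Motors of the cilium were lower as well. The dynein-2 heavy chain *dync2h1.L* was at 4.47, 4.36 and 3.34 against 64.6, 41.9 and 45.8 CPM (7.07-fold lower, adjusted p = 6.22e-05). *kif9.S*, a kinesin of motile cilia, was at 4.47, 8.88 and 7.92 against 102, 61.4 and 63.4 (5.16-fold lower, adjusted p = 0.000122), and the light chain *dynlt5.L* at 6.7, 8.12 and 7.92 against 70, 75.5 and 51.7 (4.94-fold lower, adjusted p = 0.000111). None of these overlapped. *kif3a.L* followed, at 46.9, 103 and 49.4 against 231, 263 and 247 (2.14-fold lower, adjusted p = 0.00708), and *kif5b.S* and *dync1h1.L* were also lower (1.48-fold and 3.23-fold, adjusted p = 0.0314 and 0.00091).

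On the other side, *kif14l.L*, listed under a name like that of *kif14*, was at 80.4, 57.4 and 66.9 CPM against 5.38, 13.9 and 9.39 (9.42-fold higher, adjusted p = 2.87e-05). *dynll2.S* was at 266, 280 and 243 against 156, 155 and 135 (2.99-fold higher, adjusted p = 9.32e-05), and the kinesin-1 light chain *klc1.L* was at 38, 21.3 and 32.7 against 21.5, 7.37 and 9.39 (5.27-fold higher, adjusted p = 0.000736). The first 2 were apart in all ovaries, and *klc1.L* overlapped. The other 3 higher calls (*kif1b.S*, *dync1i2.L* and *dync2i1.L*) were lost when scaled by total UMIs (adjusted p from 0.715 to 0.878). Partners changed in both directions: 5 higher and 12 lower of 33 mitotic partners, 4 higher and 10 lower of 38 dynactin and dynein regulators, and 4 and 4 of 16 kinesin partners. The vegetal RNA transport proteins had 9 of 20 higher and none lower. Without ovary 3, 20 members were called instead of 33.

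In the stage 1 follicle-like cells the mitotic kinesins were back. These are growing oocytes arrested in meiotic prophase. Of 18 mitotic members tested, 13 were higher than in early diplotene-like cells and none lower (median log2 2.38, all genes 0.02). Among them *kif11.L*, *kif20a.L*, *kif20a.S*, *kif23.L* and *kif23.S* were near the floor in early diplotene-like cells. They could hardly have been called lower, which raises the mitotic count and median. Of all 67 members tested, 14 were higher, where 4.82% of all genes were, and 2 lower, where 1.92% were. With the ovary as a block, 27 members were called, 15 of them mitotic and higher.

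*kif23.L* was at 43, 3.67 and 11.9 CPM in stage 1 follicle-like and 2.23, 0.613 and 0.834 in early diplotene-like cells (26-fold higher, log2 4.7, SE 0.899, adjusted p = 0.0239). *kif23.S* was at 35.1, 8.39 and 16.4 against 8.93, 1.15 and 2.09 (10.1-fold higher, adjusted p = 0.0339), with overlap between ovaries. Ovary 1 had the highest and ovary 2 the lowest stage 1 level for both copies. *kif11.L* was at 78.5, 10.5 and 28.5 against 6.7, 0.766 and 3.75 (16.8-fold higher, adjusted p = 0.0324), *kif20a.L* at 37, 4.72 and 17.4 against 0, 0.995 and 2.92 (12.5-fold higher, adjusted p = 0.0324), and *kif20a.S* at 44.5, 15.2 and 16.2 against 2.23, 2.53 and 3.96 (8.75-fold higher, adjusted p = 0.0161). The order of the ovaries was the same for *kif11.L* and *kif20a.L*. In ovary 1 the early diplotene-like sum held 29 cells and 447728 UMIs, so the values of these genes there rest on very few UMIs.

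The more abundant *kif2c.L* was at 461, 178 and 293 against 58.1, 72.1 and 85.3 CPM (4.65-fold higher, adjusted p = 0.0153). *kif20b.S* did not take part, with 161, 39.3 and 66.9 against 105, 43.6 and 56.9 (1.47-fold higher, adjusted p = 0.491). Its ovary 2 value was lower in the stage 1 group and the groups overlapped. Outside the mitotic class, *dynlrb2.S* was higher (136, 82.4 and 130 against 46.9, 51.7 and 58.2, 2.46-fold, adjusted p = 0.0248). Its sister chain *dynlrb1.L* (8.22, 16.3 and 11.7 against 46.9, 51.2 and 31.9, 3.1-fold, adjusted p = 0.0395) and *kif3a.S* (8.6, 9.44 and 7.68 against 26.8, 22.9 and 20, 2.35-fold, adjusted p = 0.0472) were lower.

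Mitotic partners had 18 of 32 higher and none lower (median 1.91), and *plk1*, *aurkb* and *bub1* of that list are also G2/M markers. The dynactin list had 1 lower of 36, the kinesin partners none of 15, and the vegetal RNA proteins 2 higher and 1 lower of 20. The G2/M markers moved along, at 8070, 3990 and 6510 CPM against 1510, 760 and 1590 with 17 of 17 detected. The 11 follicle lineage markers were low in both groups (29.5, 1.05 and 4.96 CPM in stage 1, with *inhbb.L*, *fst.L* and *fst.S* at 0, against 51.4, 3.45 and 10.2). The part of either list in the result was not tested. Ovaries 1 and 3 carried the calls, since without ovary 1 or without ovary 3 no member was called, and without ovary 2 there were 13.

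**Figure D2:**
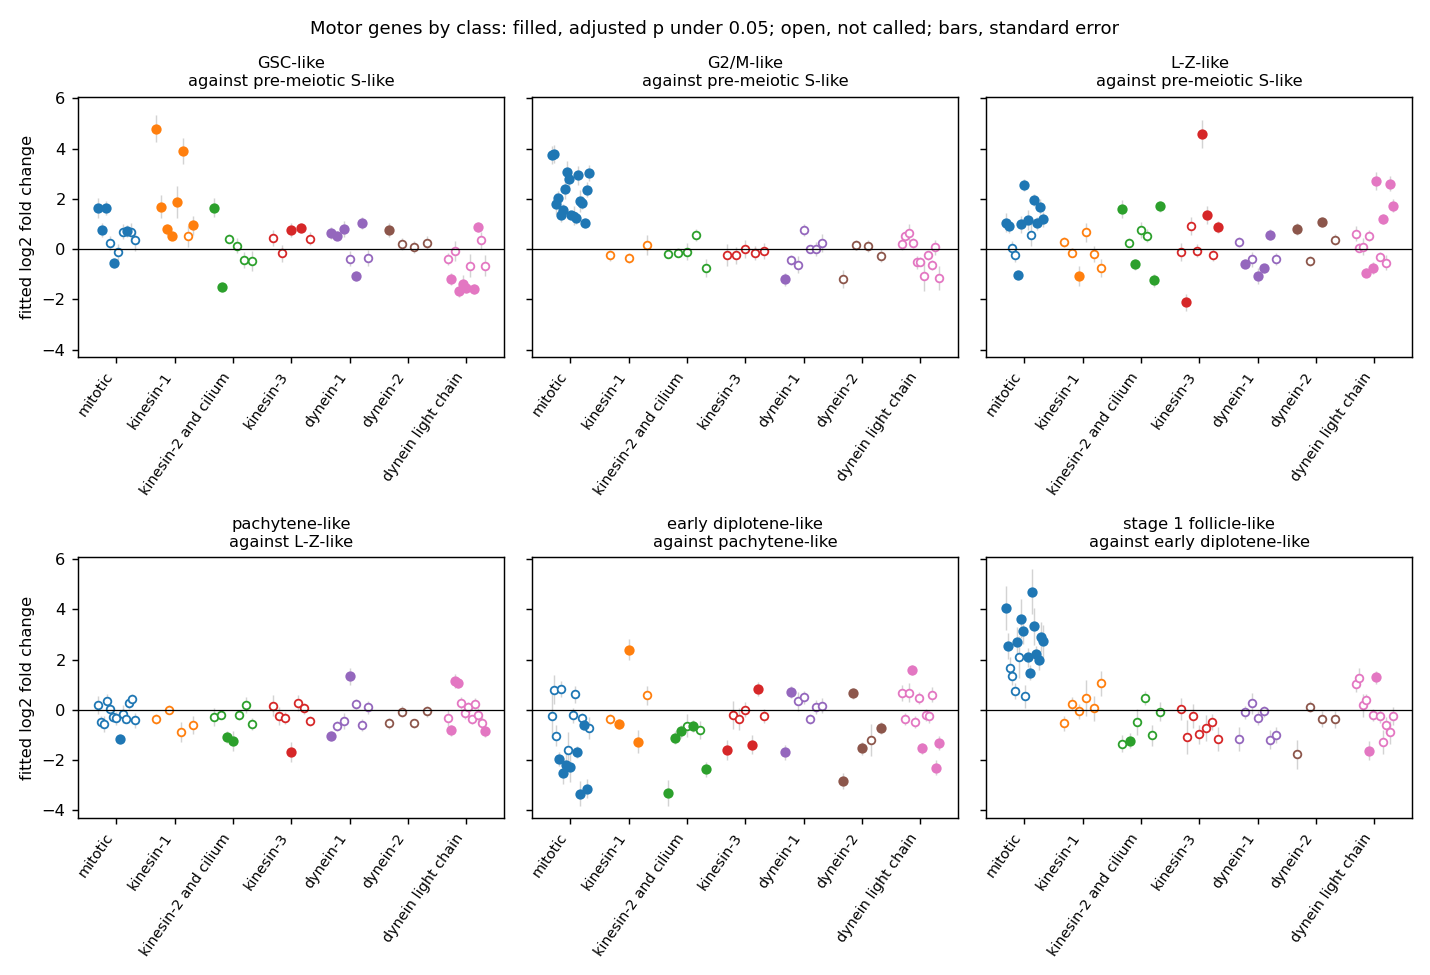
Fitted log2 fold change (y axis) of each member by motor class (x axis) in 6 comparisons between germ cell stages, with bars for the SE and filled points for an adjusted p under 0.05. The mitotic class lies above 0 for the G2/M-like cells and for the step into stage 1, and below 0 for the step into early diplotene.

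**Figure D3:**
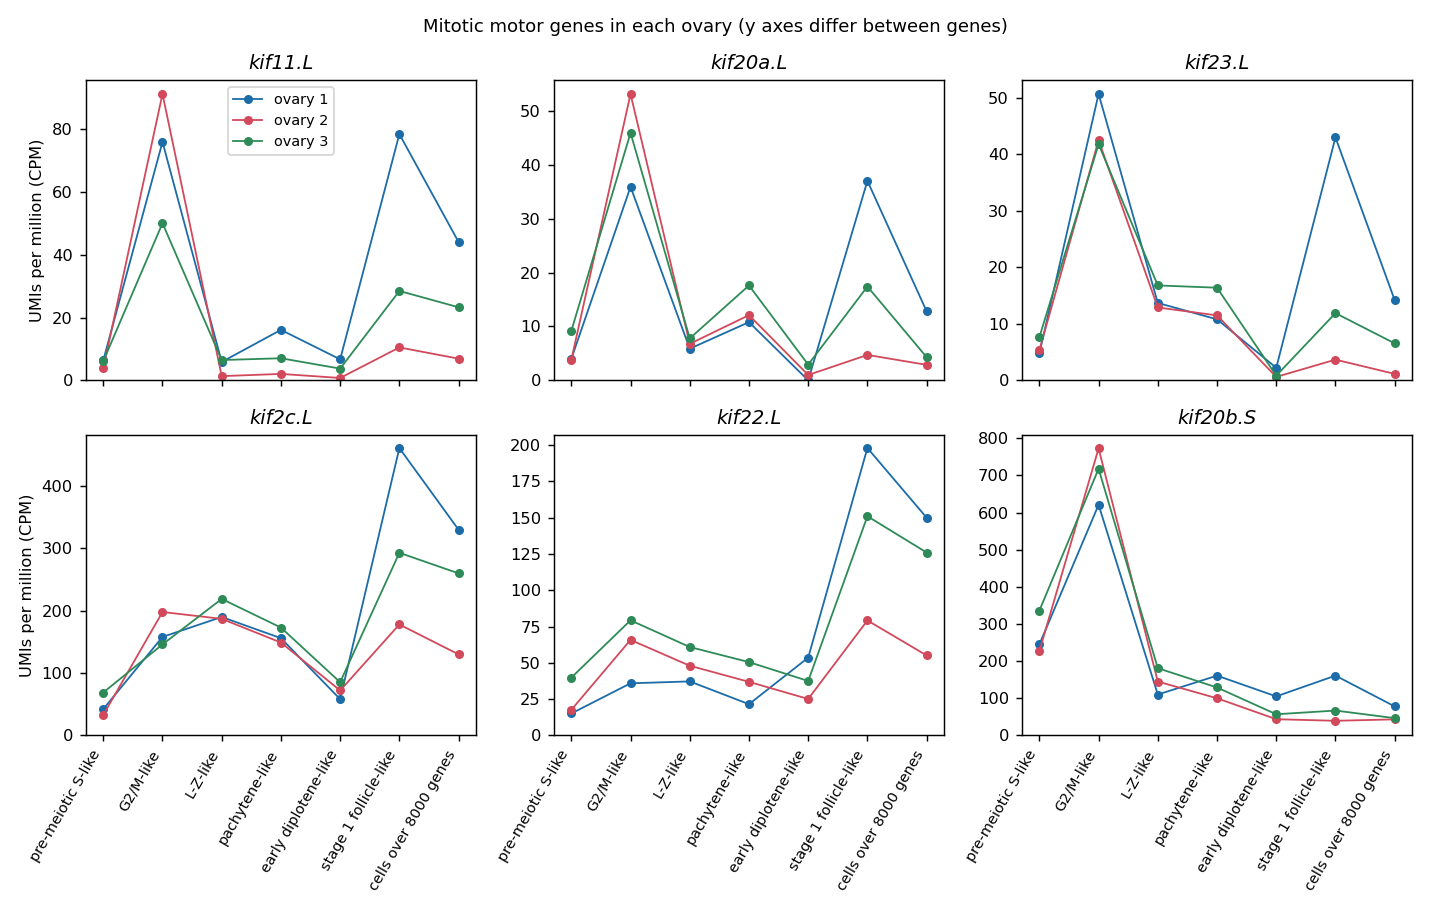
Level (y axis, CPM, scaled per panel) of 6 mitotic motor genes over 7 germ cell groups (x axis), with a line per ovary. The lines run close together up to early diplotene and spread in the stage 1 follicle-like cells, where ovary 1 is highest.

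Cells with more than 8000 genes, left out by the usual filter, were compared with the stage 1 follicle-like cells, and no motor gene passed the test. Their mitotic sum was 1190, 470 and 853 CPM, lower than in stage 1 in each ovary, and their transport sum 392, 555 and 374, against 591, 440 and 454 for transport in stage 1. By edgeR, 0 of 65 members were called higher and 0 lower, and 0% of all genes tested were called in either direction. At an unadjusted p under 0.05 there were 0 higher and 2 lower, DESeq2 called 0, and the smallest adjusted p was 0.875. *kif23.L* had 14.2, 1.15 and 6.55 against 43, 3.67 and 11.9 CPM (log2 -1.07, adjusted p = 0.875) and *kif20b.S* 78.1, 43.2 and 46.5 against 161, 39.3 and 66.9 (log2 -0.43, adjusted p = 0.879). In both groups ovary 1 was highest and ovary 2 lowest, and the ranges overlapped.

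With the ovary as a block 9 members were called, 5 of them mitotic and lower in the cells over 8000 genes (*kif18a.L*, *kif20a.L*, *kif23.L*, *kif4a.S* and *kifc1.L*). The G2/M markers were at 7080, 2850 and 6100 CPM in these cells, lower than in stage 1 in each ovary, and the follicle lineage markers at 2.09, 1.44 and 3.68. Their part in the blocked calls was not tested. A p above the threshold does not show that the groups were the same.

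Among the low-UMI clusters, cluster 5 (144, 21 and 647 cells) overlapped with the stage 1 follicle-like cells in its mitotic motors. Its mitotic sum was 1510, 550 and 1990 CPM, high in ovaries 1 and 3 and low in ovary 2, as in stage 1. Of 62 members 1 was called higher, where 2.83% of all genes were, and none lower, where 0.0331% were. DESeq2 also called 1 higher and 0 lower, and at an unadjusted p under 0.05 there were 6 higher and 3 lower. The member was *dync1h1.L*, at 25.4, 27.5 and 21.2 against 4.49, 3.67 and 1.65 (6.73-fold higher, log2 2.75, SE 0.513, adjusted p = 0.029).

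*kif23.L* was at 49.2, 0 and 48.2 CPM in cluster 5, with 0 UMIs in ovary 2, against 43, 3.67 and 11.9 (adjusted p = 0.617). The 10 epithelial markers summed to 1900, 3940 and 1400 CPM in cluster 5 and to 459, 146 and 228 in stage 1, and the 11 follicle lineage markers to 430, 268 and 167, with *inhbb.L*, *fst.L* and *fst.S* at 0. Whether they bear on *dync1h1.L*, which somatic cells also express, was not tested. With the ovary as a block 9 members were called, and without any 1 ovary none.

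Cluster 11 was small (17, 16 and 69 cells), so that 1 UMI in ovary 2 was 21.4 CPM. Against the stage 1 follicle-like cells its kinesin-3 genes were higher and its dynein light chains lower. Of 64 members tested 13 were higher, where 21.2% of all genes were, and 6 lower, where 15.5% were. Kinesin-3 had 5 of 7 higher (median log2 2.76, all genes -0.14) and the light chains 6 of 11 lower (median -1.75).

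*dynll2.S* was at 85.4, 42.7 and 93.1 CPM in cluster 11 and 401, 304 and 230 in stage 1 (5.61-fold lower, log2 -2.49, SE 0.463, adjusted p = 0.00122). *dynlt1.L* was at 53.4, 0 and 52.2 against 120, 109 and 97.3 (3.62-fold lower, adjusted p = 0.0154), with 0 UMIs in ovary 2. Both were lower in all 3 ovaries. *kif5b.L* was at 139, 128 and 145 against 34, 16.3 and 21.3 (4.01-fold higher, adjusted p = 0.00201), *kif14l.L* at 299, 235 and 387 against 91.6, 42 and 62 (3.35-fold higher, adjusted p = 0.0064), and *kif20b.S* at 342, 278 and 294 against 161, 39.3 and 66.9 (2.42-fold higher, adjusted p = 0.0423). None of these 3 overlapped. *kif13b.L*, a kinesin-3 of membrane traffic with 29 UMIs in cluster 11, was at 96.1, 107 and 55.9 against 10.5, 5.25 and 6.14 (7.34-fold higher, adjusted p = 0.000538).

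In the mitotic class 2 members were higher (*kif4a.S* and *kif20b.S*) and none lower, and the class's median of -0.2 became 0.41 when scaled by total UMIs. In that scaling (median of all genes 0.48) 22 members were higher and 1 lower, and of the light chains *dynll2.S* alone kept its call. The mitotic partners had 5 higher and 4 lower of 34, the kinesin partners 3 and 1 of 14, the vegetal RNA proteins 4 and 0 of 20, and the dynactin list 1 and 0 of 26. Ovary 3 held 69 of the 102 cells, and without it 3 members were called.

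Cluster 6 (27, 385 and 280 cells) had the lowest median UMI count of the 3 clusters and was compared with both stage 1 and L-Z-like cells. Against stage 1 some mitotic kinesins and LC8 light chains were called lower, and some kinesin-2 and dynein-1 genes higher. Of 62 members tested 8 were higher (12.9%), where 9.24% of all genes were, and 8 lower (12.9%), where 12% were. The shares of members called were thus close to those of all genes. The mitotic class had 4 of 18 lower and none higher (median log2 -1.29, all genes -0.11), and kinesin-2 had 3 of 5 higher. In ovary 1, 1 UMI was 34.3 CPM.

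*kif2c.L* was at 34.3, 109 and 124 CPM in cluster 6 and 461, 178 and 293 in stage 1 (4.33-fold lower, adjusted p = 0.00891), and *kif22.L* at 34.3, 27.8 and 77.5 against 198, 79.2 and 151 (4.29-fold lower, adjusted p = 0.0113). Neither overlapped. *kif23.S* was at 0, 4.84 and 9.3 against 35.1, 8.39 and 16.4, from 7 UMIs in cluster 6 (4.54-fold lower, adjusted p = 0.041). *kif3a.S* was at 137, 35.1 and 34.1 against 8.6, 9.44 and 7.68 (3.35-fold higher, adjusted p = 0.0219), and *dync1li2.L* at 103, 55.7 and 49.6 against 22.8, 10.5 and 9.21 (2.8-fold higher, adjusted p = 0.0273). With total UMIs (median of all genes 0.51) the split was 16 higher and 2 lower, and the light chains turned from 1 higher and 4 lower (median -0.18) to 3 higher and none lower (median 0.49). The mitotic class had 2 of 18 lower and none higher in that scaling (median -0.73). Of the mitotic partners 1 was higher and 12 lower of 32, of the dynactin list 2 and 1 of 29, of the kinesin partners 0 and 0 of 13, and of the vegetal RNA proteins 1 and 4 of 19. Without ovary 2, 6 members were called instead of 16, and without ovary 3, 7.

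Against the L-Z-like cells, cluster 6 was lower in kinesin-2 and cilium motors and in most of the light chains that were called. Of 59 members tested 4 were higher, where 14% of all genes were, and 22 lower, where 18% were. The light chains had 2 higher and 6 lower of 12, and kinesin-2 and cilium 5 of 7 lower. *kif9.S* was at 0, 19.4 and 12.4 CPM against 108, 101 and 92 (5.86-fold lower, adjusted p = 0.000167), *dynlt5.S* at 0, 27.8 and 27.9 against 119, 135 and 115 (4.46-fold lower, adjusted p = 0.000303), and *dync2h1.L* at 0, 21.8 and 9.3 against 64.6, 67.7 and 66.1 (3.75-fold lower, adjusted p = 0.00171). Each was at 0 UMIs in ovary 1 of cluster 6. *kif1a.S* had 0 UMIs in cluster 6 and 80 in L-Z-like cells.

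The LC8 light chains again went apart. *dynll2.S* was at 171, 228 and 195 against 66.6, 68.3 and 72.6 (3.04-fold higher, adjusted p = 0.000523) and *dynll1.S* at 0, 54.5 and 49.6 against 223, 229 and 196 (4.25-fold lower, adjusted p = 0.000416). *dync1li1.L* was at 68.5, 81.1 and 93 against 7.83, 25 and 33.7 (3.74-fold higher, adjusted p = 0.00146). No values overlapped between the groups for these 3 genes. *kif20b.S* (103, 66.6 and 99.2 against 110, 145 and 181 CPM) was not called (adjusted p = 0.0623).

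Partner lists gave 1 higher and 8 lower of 28 mitotic partners, 0 and 3 of 26 dynactin and dynein regulators, 1 and 3 of 12 kinesin partners, and 8 and 2 of 19 vegetal RNA proteins. Globin genes led cluster 6, and the erythroid markers summed to 171, 36.3 and 2250 CPM, with *alas2.L* at 0. Their part was not tested. Without ovary 2, 10 of the 26 calls were made, and in finer clusters 13.

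Over all kept cells, germ cells were compared with somatic cells. The sums weigh each cell by its UMIs, so that large oocytes weigh most in the germ cell sums. In these sums light chains, cilium motors and dynein-2 were higher in germ cells. The dynein-1 heavy chain, *dynlt3.L* and several kinesin-3 genes were higher in somatic cells. Of 81 members tested 23 were higher in germ cells, where 21.9% of all genes were, and 10 lower, where 27.7% were. Scaled by total UMIs (median of all genes 0.81, against 0.07) the split became 43 higher and 4 lower.

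The dynein light chains had 6 higher and 1 lower of 12. *dynlrb2.S* was at 98.9, 114 and 110 CPM in germ cells and 5.33, 22.6 and 17.2 in somatic cells (4.56-fold higher, adjusted p = 0.00604), *dynll2.S* at 242, 248 and 207 against 23.7, 43.4 and 34 (4.22-fold higher, adjusted p = 0.00067), and *dynlt5.L* at 15, 25.1 and 13.7 against 1.32, 5 and 0.847 (4.95-fold higher, adjusted p = 0.0151). They were apart in each ovary. *dynlt3.L*, a Tctex-type light chain, was the exception, at 33.1, 21.2 and 20.5 against 82.8, 106 and 75.7 (5.92-fold lower, adjusted p = 0.000286).

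Kinesin-2 and cilium had 4 of 9 higher and dynein-2 3 of 5, with none lower in either class. *kif24.L* was at 20.1, 12.8 and 18.8 against 1.26, 1.8 and 3.95 CPM (4.59-fold higher, adjusted p = 0.00552), and *kif5a.L* at 3.39, 4.07 and 1.82 against 0.12, 0.801 and 0, from 214 and 6 UMIs. In the mitotic class 3 of 19 were higher (*kif2c.L*, *kif2c.S* and *kif22.S*) and none lower, against 11 with total UMIs. *kif23.L* (27, 4.87 and 11.9 against 6.29, 5.4 and 8.19), *kif23.S* and *kif20b.S* were not called (adjusted p = 0.617, 0.805 and 0.502).

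In somatic cells *dync1h1.L* was at 56, 85.5 and 70.4 CPM against 29.8, 22.1 and 15.5 in germ cells (5.27-fold lower in germ cells, adjusted p = 0.000378). Of kinesin-3, *kif1b.L* was at 25.6, 28.2 and 30.4 against 13.3, 12.2 and 7.08 (4.35-fold lower in germ cells, adjusted p = 0.00057) and *kif13b.L* at 23.4, 23.6 and 34.4 against 17.1, 9.37 and 10.9 (3.67-fold lower, adjusted p = 0.00153). In the pooled sums these 3 genes did not overlap between germ and somatic cells. The class as a whole had 2 higher and 5 lower of 10 (median log2 -0.7), which became 2 and 2 (median 0.01) with total UMIs. Kinesin-1 (-0.52 to 0.15) and dynein-1 (-0.28 to 0.47) also changed the sign of their median with that scaling. Of the mitotic partners 10 of 35 were higher and none lower, of the dynactin list 5 and 13 of 46, of the kinesin partners 2 and 5 of 26, and of the vegetal RNA proteins 10 and 3 of 20. Without ovary 1 or ovary 3, 17 and 12 of the members were called instead of 33.

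The mitotic sum was lower in the named somatic types than in most germ cell stages. It was 120, 219 and 371 CPM in stromal-like, 225, 341 and 410 in follicle lineage-like, 195, 345 and 376 in epithelial-like, 248, 268 and 490 in endothelial-like and 258, 234 and 510 in leukocyte-like cells. Ovary 3 was highest and the types overlapped over the ovaries. Erythroid-like cells had the lowest mean, 111 ± 98.6. The germ cell marker *ddx4.L* was also counted in somatic cells as a whole, at 117, 444 and 248 CPM, highest in ovary 2. *ccnb2.L*, high in stage 1 follicle-like cells (1210, 647 and 991 CPM), was at 27.9, 7.41 and 116 in somatic cells, highest in ovary 3. The part of germ cell RNA in the somatic mitotic sums was not tested.

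The transport motors were highest among somatic types in the endothelial-like cells (973, 1300 and 1050 CPM), where *dync1h1.L* alone had 124, 171 and 109. Follicle lineage-like cells had 662, 830 and 897, epithelial-like 586, 770 and 740, leukocyte-like 609, 918 and 670 and stromal-like 502, 809 and 707. Within each ovary the endothelial-like value was above those of the other 4 types, and the other types' order changed between ovaries. Erythroid-like cells had 87.5, 415 and 202. These levels are descriptions with no test, and mural-like cells, with 8 cells in each of ovaries 2 and 3, were not described.

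A proliferating group of somatic cells (289, 22 and 395 cells), with *top2a.L* and collagen genes among its leading genes, was compared with all other somatic cells. Mitotic kinesins were higher in it, and little else in the motor families differed. Of 65 members tested 14 were higher, all mitotic (14 of 18 tested), where 1.92% of all genes were, and *dynlt3.L* was lower, where 6.08% of all genes were. The median mitotic log2 difference was 1.66, against -0.06 for all genes. The group was defined as proliferating by genes that vary with these kinesins.

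*kif20a.L* was at 46.4, 121 and 9.05 CPM against 3.85, 6.08 and 6.18 in other somatic cells (6.57-fold higher, adjusted p = 0.017), *kif11.S* at 48.2, 51.7 and 41.4 against 6.61, 11.9 and 14.7 (3.78-fold higher, adjusted p = 0.0104), and *kif4a.S* at 132, 241 and 68.5 against 20.4, 37.5 and 38.8 (3.42-fold higher, adjusted p = 0.0175). No values overlapped, and 1 UMI in ovary 2 of this group was 17.2 CPM. *kif23.L* was at 35.5, 0 and 16.8 against 4.23, 5.47 and 7.13 (4.12-fold higher, adjusted p = 0.032) and *kif20b.S* at 204, 345 and 115 against 39.1, 70.7 and 69.4 (2.85-fold higher, adjusted p = 0.0267). *kif23.L* had 0 UMIs in ovary 2. *dynlt3.L* was at 29.1, 34.5 and 31 against 86.6, 107 and 81.1 (3.35-fold lower, adjusted p = 0.00822).

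Of the mitotic partners 18 of 31 were higher and none lower, of the dynactin list none higher and 2 lower of 36, and none of the kinesin partners or vegetal RNA proteins was called. The partner genes *plk1*, *aurkb* and *bub1* are also among the markers of the proliferating group. The stromal markers were at 11500, 24300 and 16700 CPM in the proliferating cells and at 3570, 4080 and 5260 in the others. Their part in the calls was not tested. With the ovary as a block 24 members were called, 18 of them mitotic. Without ovary 1 the count was 1 and without ovary 2 it was 0. Against stromal-like cells alone, a comparison chosen after seeing the data, it was 0, although the named mitotic genes kept log2 differences of 2.28 to 2.59 (adjusted p from 0.183 to 0.24).

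Dividing germ cells and dividing somatic cells were set against each other last. The marker *mki67.S* was at 507, 539 and 493 CPM in the G2/M-like cells and 182, 448 and 112 in the proliferating somatic cells. *cdk1.L* went the other way (69.7, 84.9 and 66.8 against 87.3, 190 and 68.5), and *ccnb2.L* differed in direction between ovaries. The share of dividing cells in the 2 groups was not tested. Kinesin-2 and cilium genes, dynein-2 genes and some light chains were higher in the germ cells, as were a few of the mitotic kinesins. Of 49 members tested 16 were higher in G2/M-like germ cells, where 24.8% of all genes were, and 3 lower, where 22.7% were. The mitotic class had 4 of 18 higher and none lower (median log2 0.12), and 9 of 18 higher (median 0.89) when scaled by total UMIs. *kif20b.S* was at 621, 773 and 718 CPM against 204, 345 and 115 (2.23-fold higher, adjusted p = 0.00691), without overlap, whereas *kif23.L* (50.7, 42.5 and 41.8 against 35.5, 0 and 16.8, log2 0.07, SE 0.459, adjusted p = 0.912) and *kif23.S* (log2 0.38, SE 0.398, adjusted p = 0.447) were not called.

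*kif3a.L* was at 188, 223 and 150 CPM in the germ cells and 22.7, 68.9 and 28.4 in the somatic cells (3.97-fold higher, adjusted p = 0.000135), and the dynein-2 light intermediate chain *dync2li1.S* at 44.3, 46.7 and 37.6 against 5.45, 17.2 and 10.3 (3.18-fold higher, adjusted p = 0.00438). *dync1h1.L* was the reverse, at 23.2, 27.6 and 29.2 against 61.8, 155 and 58.2 (4.37-fold lower, adjusted p = 0.000278). The 3 genes were apart in all ovaries. Light chains had 4 of 10 higher, kinesin-2 3 of 4, dynein-2 2 of 3, and dynein-1 2 higher and 2 lower of 6. Mitotic partners had 5 higher and 1 lower of 29, the dynactin list 4 and 3 of 21, the kinesin partners none of 7, and the vegetal RNA proteins 3 and 5 of 16. All genes had a median of 0.21 here, and of 0.97 with total UMIs, where 31 members were higher and 2 lower, and DESeq2 called 6 higher and 2 lower.

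*kif23* and *kif20b*, both kinesin-6 genes, could be followed over all groups. *kif23.L* was at 50.7, 42.5 and 41.8 CPM in G2/M-like cells, 13.7, 12.9 and 16.8 in L-Z-like cells and 2.23, 0.613 and 0.834 in early diplotene-like cells, and reached 43, 3.67 and 11.9 in stage 1 and 49.2, 0 and 48.2 in low-UMI cluster 5. *kif20b.S* was at 621, 773 and 718 in G2/M-like, 105, 43.6 and 56.9 in early diplotene-like and 342, 278 and 294 in low-UMI cluster 11 cells. In other somatic cells it had 39.1, 70.7 and 69.4. Of the 7 named germ cell stages the G2/M-like one had the highest level of *kif23.L* and of *kif20b.S* in each ovary, whereas *kif23.S* was higher in stage 1 in ovary 1 (35.1, 8.39 and 16.4 against 25.3, 44.6 and 29.2 CPM).

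The use of the 2 homeologs changed with stage for some genes. For *kif3a*, the .L copy gave 22, 19.2 and 27.4% of the UMIs of both copies in GSC-like cells, 51.6, 52.1 and 53.8% in pre-meiotic S-like cells and 79.6, 81.6 and 74.7% in pachytene-like cells. For *kif22*, the .L share was 13.1, 20.1 and 17.9% in L-Z-like cells and 74.9, 70.9 and 74.9% in stage 1. The direction was the same in the 3 ovaries for both. The dynein-2 intermediate chain *dync2i1* had an .L share of 22, 26.5 and 22.7% in L-Z-like and 69.3, 74.1 and 75.7% in stage 1, and *dynll1* of 43, 37.7 and 38.2% in pre-meiotic S-like and 65.1, 75.1 and 75.3% in stage 1. These genes were picked after their shares were seen, so no test was run.

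**Figure D4:**
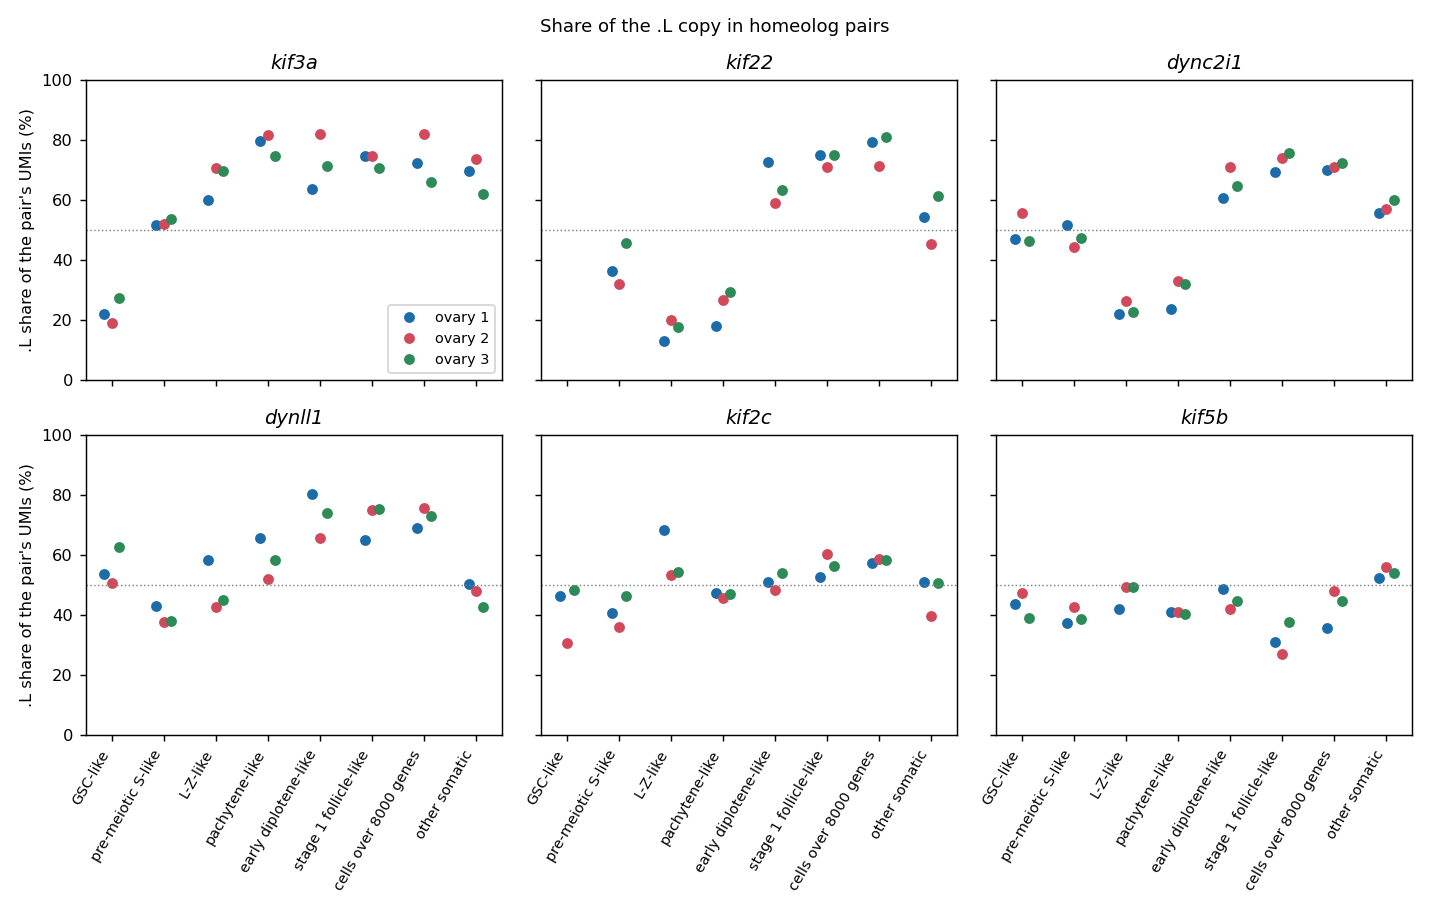
Share of the .L copy in the UMIs of both homeologs (y axis, percent) for 6 motor genes over 8 cell groups (x axis), with 1 point per ovary and a dotted line at 50%. The copies of *kif3a*, *kif22* and *dync2i1* lie on different sides of the line at different stages.

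**Figure D5:**
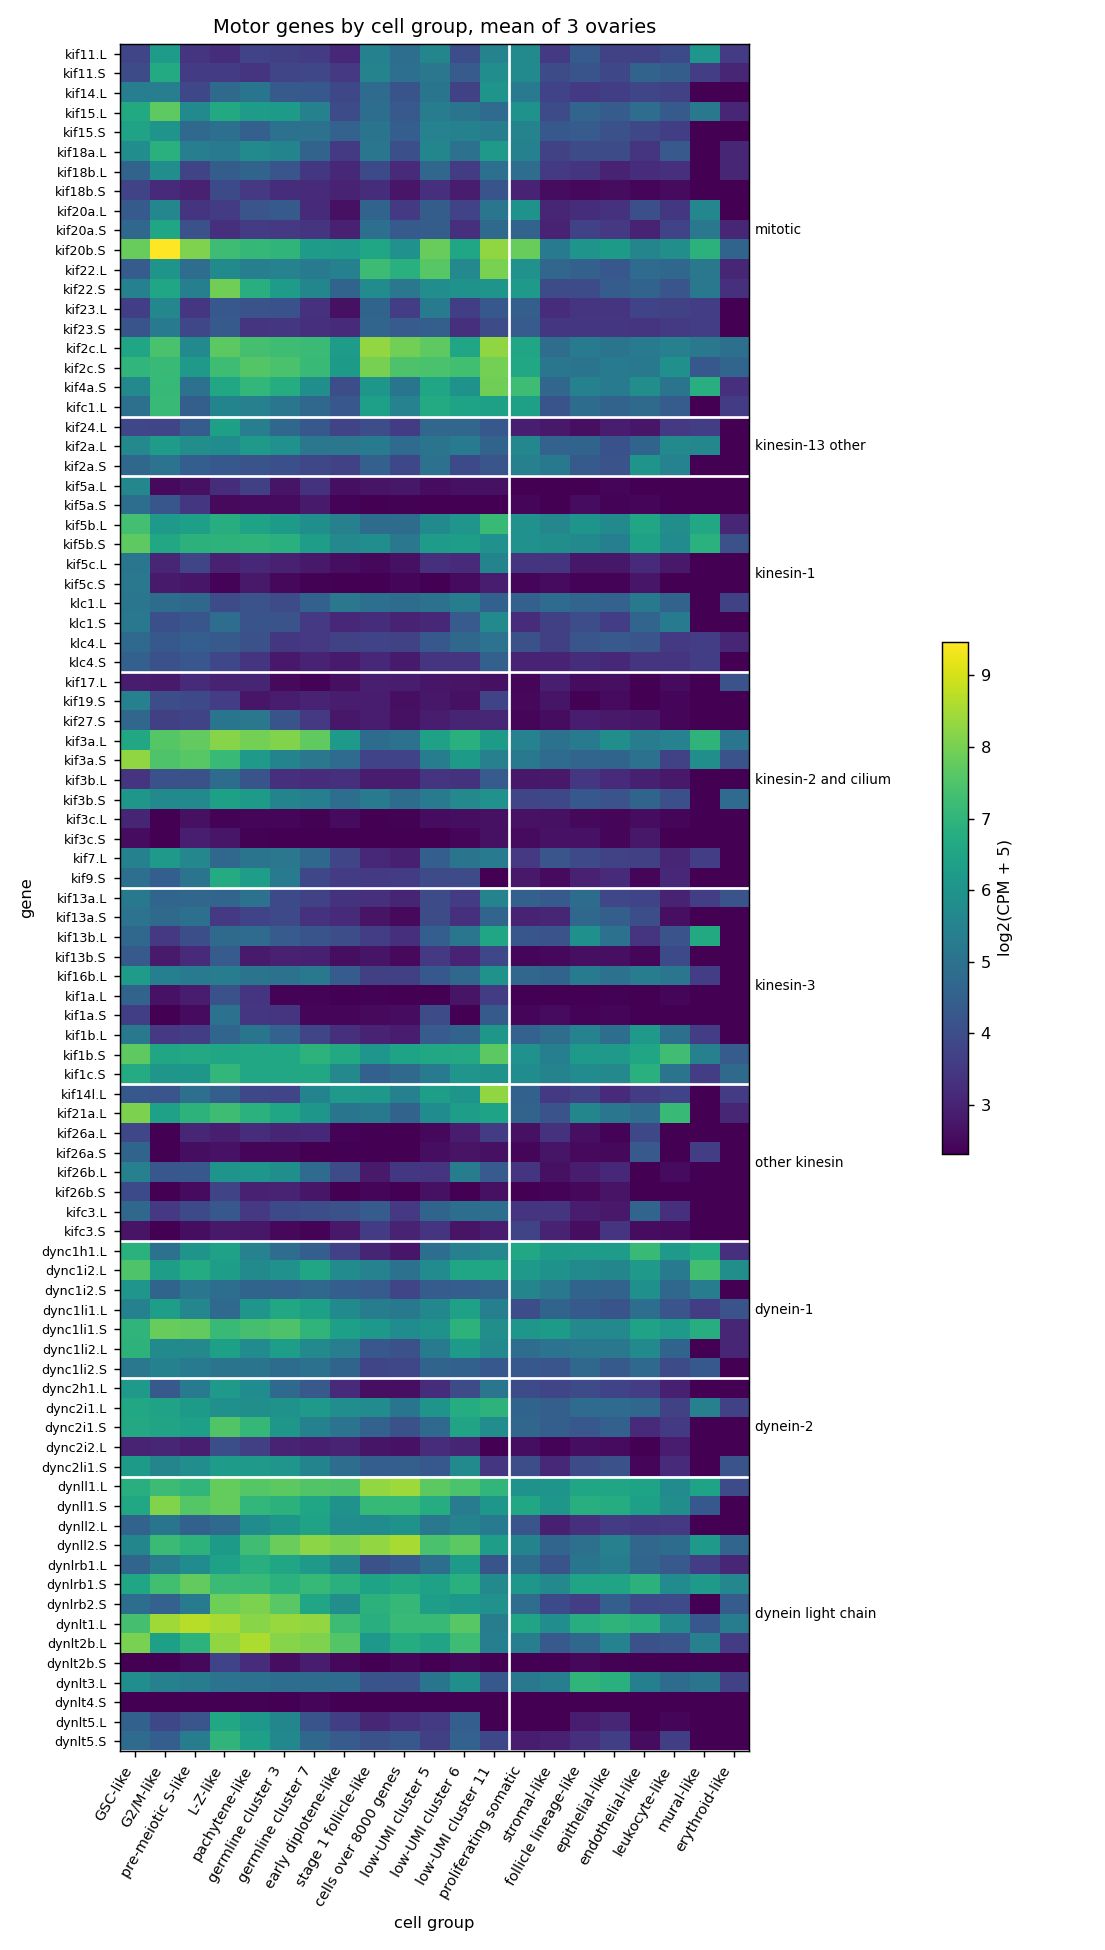
Level of each of the 87 motor genes (rows, by class) in each cell group (columns), as log2 of CPM plus 5, mean of 3 ovaries. Mitotic members are high in the G2/M-like and stage 1 follicle-like cells and in low-UMI clusters 5 and 11, and several kinesin-1 members in the GSC-like cells.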

How the data were processed

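Single-cell RNA was counted in 3 ovaries. The deposited UMI counts per gene and cell are unnormalised counts that the authors made with Cell Ranger 8.0.1, per the submitters' processing notes; the genome build is not given in the sources used here. Features with no name held 0.363%, 0.44% and 0.443% of UMIs and stayed out of all totals and tests.

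Cells were kept if they had from 100 up to 8000 genes and no more than 1.5% of their UMIs on 13 mitochondrial genes, and were clustered with Seurat 5.3.0 (R 4.3.3) after the study's steps: 2000 variable genes per ovary, integration of the ovaries, 20 dimensions at resolution 1, then germline clusters again with 30 dimensions at resolution 0.5. A cluster was called germline at 5 or more UMIs of *ddx4* and *dazl* per 10000. The 7 motor genes among the variable genes were taken out. Germline clusters counted as low-UMI if their median was under 1000 UMIs, or if *velo1.L* and *zp4.L* were above the L-Z-like level and the stage 1 follicle-like median was more than 3 times theirs. Scrublet (scanpy 1.11.5) called 48, 5 and 36 doublets in 5839, 5407 and 6238 cells, too few to be taken as having worked, so no cell was removed as a doublet.

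UMIs were summed per ovary and group, leaving out sums of fewer than 10 cells, and tested with edgeR 4.0.16 (quasi-likelihood test, TMM, filterByExpr, Benjamini-Hochberg over all genes tested, threshold 0.05, two-sided). The main fit had no term for the ovary. Every cell group came from the same 3 animals, so a fit with the ovary as a block was the paired alternative. Deviations of sums from 1 ovary correlated at 0.038 to 0.772 over 42 pairs, 2 of them under 0.1. Other alternatives were DESeq2 1.42.0, no filter, thinning to equal depth, leaving out each ovary, finer clusters, motor genes kept for clustering, leaving out cells with high doublet scores, means over cells, and, chosen after seeing the data, scaling by total UMIs and stromal-like cells alone as the control. The test was tested on simulated data.

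Genes were named by a rule: among called members averaging 20 or more UMIs a sum and moving one way in 3 of 3 ovaries, the 5 largest rises and 5 largest falls, and in addition both copies of *kif23*, *kif20b.S* and the member with most UMIs of each class. Other genes named were chosen after their values were seen. Members, classes and partner lists were chosen with earlier results of these data known. The limit that 3 counts allow covers counting error only, whereas each SD is over 3 ovaries and each SE is from a fit to the sums per ovary.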

Additional observations from a re-analysis of the deposited data

Results flagged for a closer look

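Motor genes also gave a signal in cells that entered no comparison. Cells taken out for a high mitochondrial share (148, 894 and 726 in ovaries 1, 2 and 3) held 2690, 2760 and 3070 motor gene UMIs per 1000000 UMIs (CPM), above the limit that 3 counts allow (15.8, 0.743 and 1.39 CPM). Mitotic members gave 518, 400 and 708 of these and transport members 1010, 1020 and 1010. A sum over all motor genes passes so low a limit in nearly any group of cells, so passing it carries little information. Groups of 3 ovaries were not tested for single samples far from the others.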

How the results depend on the processing

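Counts of called motor genes (by over 1.5 times) or class levels (by over 1 SD) moved in 49 alternative values and not in 144, and of the values for single named genes 885 kept their call, 142 lost it and 1 reversed. That 1 was *dync1li1.S* in L-Z-like against pre-meiotic S-like cells, at 0.26 in finer germline clusters, where the cause was not tested. With the ovary as a replicate block, all 97 named calls were kept, and the counts became 21 for pachytene-like against L-Z-like, 27 for stage 1 against early diplotene, 9 for cells over 8000 genes, 9 for low-UMI cluster 5 and 24 for proliferating somatic cells.

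Leaving out 1 ovary gave 10 to 13 calls for G2/M-like against pre-meiotic S-like cells, 14 to 22 for GSC-like, 19 to 28 for L-Z-like, 0 to 9 for pachytene-like, 20 to 34 for early diplotene-like, 0 to 13 for stage 1, 0 to 0 for low-UMI cluster 5, 6 to 17 for low-UMI cluster 6 against stage 1, 3 to 19 for low-UMI cluster 11, 10 to 22 for low-UMI cluster 6 against L-Z-like cells, 12 to 27 for germ against somatic cells, and 0 to 16 for proliferating somatic cells. With fewer samples these fits have less power by construction.

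DESeq2 called 18 for GSC-like cells and 8 for G2/M-like germ cells against proliferating somatic cells, and total UMIs, chosen after seeing the data, 33 for the latter. Thinning to equal depth gave 19 for GSC-like cells, 0 for low-UMI cluster 5, 10 for cluster 6 against stage 1, 7 for cluster 11, 8 for proliferating somatic cells and 10 for G2/M-like against proliferating somatic cells. Without the filter stage 1 had 27 and cluster 5 had 2. Finer clusters gave 7 for L-Z-like, 1 for pachytene-like, 0 for cluster 5 and 13 for cluster 6 against L-Z-like cells, and leaving out the cells of highest doublet score gave 0 for cluster 5. Stromal-like cells alone, chosen after seeing the data, gave 0 for proliferating somatic cells. The cause of these moves was not tested.

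As means over cells, the transport sums were 798 CPM in epithelial-like, 923 in follicle lineage-like, 2460 in GSC-like, 1680 in cluster 11, 1250 in cluster 6 and 1550 in pachytene-like cells. No value could be had for proliferating somatic cells with motor genes kept for clustering, where ovary 2 held 1 such cell, and the finer germline clusters do not bear on the somatic comparisons. With 3 ovaries, small groups and 3′ counts, members of low UMI count could not be tested.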

Other observations

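Germline clusters 3 and 7 carried no stage name and entered no comparison between stages. In cluster 3 (37, 666 and 163 cells) the mitotic sum was 902, 855 and 966 CPM and the transport sum 1390, 1420 and 1350. In cluster 7 (11, 527 and 95 cells) the mitotic sum was 844, 572 and 542 and the transport sum 1240, 1150 and 1110. All 6 transport values lay below those of the pachytene-like cells (1530, 1510 and 1530) and above those of the early diplotene-like cells (657, 810 and 678) in each ovary.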
